A study of Mus musculus with 20 samples.

Results

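Gene expression was compared between day 8 and day 4 of adipocyte differentiation in 3T3-L1 cells that carried a hairpin against Tcf7l2. 3T3-L1 is a mouse preadipocyte line that turns into lipid-filled adipocytes after hormonal induction. RNA was sequenced from 20 libraries in all, 10 of knockdown and 10 of scrambled cells, with 2 libraries per hairpin at each of days 0, 2, 4, 6 and 8. The comparison described here rests on 4 of those 20 libraries, chosen by their labels alone: 2 of Tcf7l2 knockdown cells at day 8 and 2 of Tcf7l2 knockdown cells at day 4. The knockdown libraries of days 0, 2 and 6 helped to estimate the spread and give the course of each gene. The scrambled libraries of the same days, 2 at day 8 and 2 at day 4, show how the interval looked without the hairpin against Tcf7l2. All cells were transduced at passage 2 with a SMARTvector lentiviral hairpin, against Tcf7l2 or scrambled, and kept as a mixed population after puromycin selection. Day 8 and day 4 of the knockdown arm therefore share the hairpin, the vector and the selection, and differ in time. The libraries came from a single knockdown hairpin, so loss of Tcf7l2 and other effects of that hairpin cannot be told apart in any difference between the arms. A thiazolidinedione was not routinely added to the medium, per the labels, which name neither the hormones used, nor the days they were given and removed, nor the hour of sampling. Nothing in the labels tells whether paired libraries were grown as separate cultures; p-values here reflect the spread among sequenced samples, and that spread may be technical.

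Tcf7l2 is a transcription factor that works with beta-catenin at genes controlled by Wnt signals, and Wnt signalling holds preadipocytes back from differentiating. Standard induction of 3T3-L1 cells uses a synthetic glucocorticoid, insulin and an inhibitor of cyclic AMP breakdown for the first days. C/EBP beta and C/EBP delta respond early to these hormones and are followed by PPAR gamma and C/EBP alpha, which switch on the genes of lipid storage. Genes that the glucocorticoid receptor switches on directly, such as Fkbp5 and Tsc22d3, follow the presence of the hormone, and glucocorticoids also act on the cellular clock.

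Levels are given as normalised counts, that is reads per gene recovered from the deposited values and scaled so that a typical gene has the same value in every library. They depend on gene length and are compared between libraries, not between genes. Changes are log2 differences of normalised count + 1, with knockdown day 8 minus knockdown day 4 unless stated otherwise, and a gene is called when its limma adjusted p is below 0.05. Total reads were 20855890 and 33115163 in the knockdown libraries of day 8 and 24401253 and 32339452 in those of day 4, within the 20153362 to 33973608 of the series. Tcf7l2 (ENSMUSG00000024985.11) had 519 and 439 normalised counts in knockdown cells at day 8, against 1380 and 1563 in scrambled cells. At day 4 it had 359 and 340 in knockdown cells, against 1053 and 1149 in scrambled cells. The knockdown libraries lay below the scrambled ones on both days. The log2 difference was -1.62 at day 8 (adjusted p = 0.00508) and -1.65 at day 4 (adjusted p = 0.00111); the day 8 call ended without scrambled library 2 (adjusted p = 0.0736) or knockdown library 2 (adjusted p = 0.0834) of that day. Between the days, Tcf7l2 differed in knockdown cells by 0.45 (95% interval -0.04 to 0.94, adjusted p = 0.460). Markers of both adipocytes and preadipocytes were present. The 26 mature adipocyte markers summed to 119444 and 204549 normalised counts at day 8 and to 98513 and 167703 at day 4. The libraries numbered 2 were the higher ones at both days. The 20 preadipocyte markers summed to 110459 to 131494 at day 8 and to 75532 to 84024 at day 4. Dlk1, whose values are given below, lay higher in both day 8 libraries than in both day 4 libraries and narrowly missed a call. Without it, the other 19 summed to 46110 to 49564 at day 8 and to 45421 to 47415 at day 4. The whole list had a median log2 change of 0.08 with 11 of 20 above 0. In such bulk samples, fewer cells of a type and less RNA per cell cannot be told apart.

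Between day 8 and day 4 of the knockdown arm more genes fell than rose, except with libraries scaled by total reads. Of 16137 genes tested, 341 were called (2.11%), 131 higher (0.812%) and 210 lower (1.3%) at day 8. Among the genes that fell were the receptor targets Fkbp5 and Tsc22d3 and the basement membrane collagen Col4a1, and among those that rose were the clock genes Dbp and Nr1d2, the smooth muscle actin gene Acta2 and the protease inhibitor gene Timp3. A change of at least 2-fold was reached by 133 of the genes that fell and 74 of those that rose, and at least 4-fold by 60 and 24. Libraries scaled by total reads in place of the median of ratios gave 375 calls. The share of calls that were higher was 50.7% in that scaling and 38.4% in the main one. With the replicate number as a block, 934 genes were called (5.79%), 441 higher (2.73%) and 493 lower (3.06%), and 339 of the 341 genes remained called. Leaving out 1 library cut the count to 85 without day 4 library 2, 96 without day 8 library 1, 102 without day 8 library 2 and 137 without day 4 library 1.

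**Figure D1:**
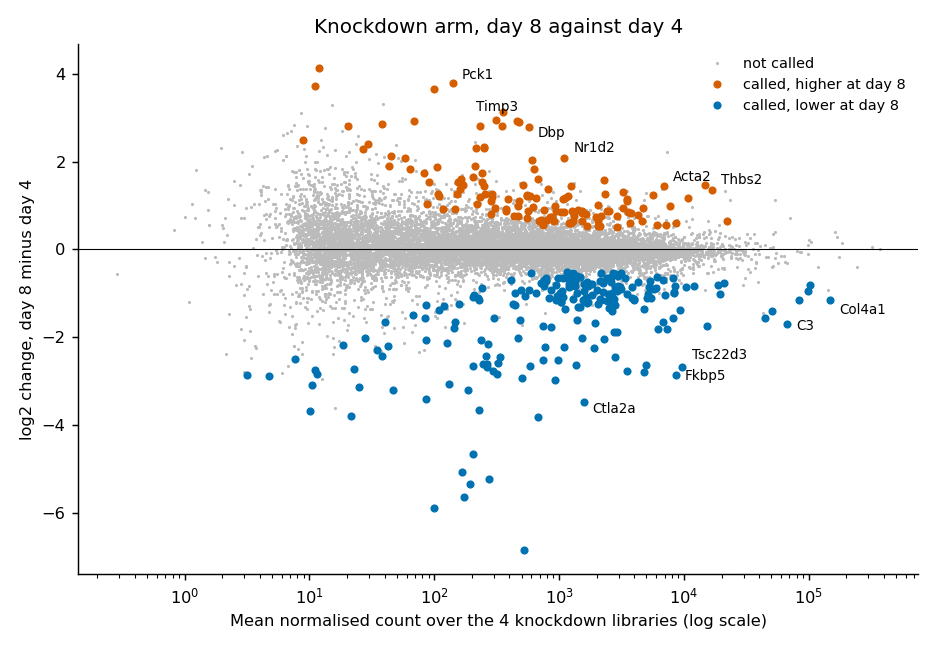
Log2 change between knockdown day 8 and knockdown day 4 (vertical axis) against the mean normalised count over the 4 libraries (horizontal axis, log scale) for the 16137 genes tested, with the 131 genes called higher in orange and the 210 called lower in blue. The lower calls reach further from 0 than the higher ones, down to Fam107a at -6.83, the lowest point.

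Genes of the glucocorticoid response fell together. Of 15 such genes tested, 10 were called lower, none higher, and the median change was -1.35, beside a median of 0.00 and 1.3% called lower over all genes tested. Fkbp5 (ENSMUSG00000024222.9), a co-chaperone that dampens the glucocorticoid receptor, had 2138 and 2044 normalised counts at day 8, against 14793 and 15450 at day 4. Its level at day 8 was 7.23 times lower, a log2 change of -2.85 (SE 0.124, adjusted p = 1.47e-05). Tsc22d3 (ENSMUSG00000031431.7), which encodes the glucocorticoid-induced leucine zipper protein GILZ, had 2695 and 2596 at day 8, against 16064 and 17547 at day 4. The 2 libraries of a day nearly coincided for both genes, and the days were far apart. Tsc22d3 fell by 2.67 on the log2 scale (SE 0.150, adjusted p = 8.78e-05). Zbtb16 (ENSMUSG00000066687.4), a zinc finger repressor also known as PLZF, had 244 and 182 at day 8, against 1751 and 1546 at day 4, a change of -2.96 (SE 0.373, adjusted p = 0.00482).

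Cebpd (ENSMUSG00000071637.4), the early C/EBP factor of adipogenesis, had 604 and 732 normalised counts at day 8, against 2801 and 3497 at day 4. It fell by 2.23 on the log2 scale (SE 0.182, adjusted p = 0.000505). Per1, a clock gene that glucocorticoids induce directly, had 943 and 894 at day 8, against 2906 and 2943 at day 4, a change of -1.67 (adjusted p = 0.000624). Klf9, a Krüppel-like factor, changed by -0.91 and Lcn2, an iron-binding acute phase protein, by -2.05. The other 3 called members fell by 0.98 to 1.81. Of the 5 members not called, 4 had a log2 change below 0. The calls of Fkbp5, Tsc22d3, Zbtb16, Cebpd and Per1 held in each of the 4 fits that left out 1 library, that of Klf9 ended without day 4 library 1 or day 8 library 1 (adjusted p = 0.0643 and 0.0609), and that of Lcn2 ended in all 4 (adjusted p = 0.108 to 0.222).

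Fkbp5 and Tsc22d3 were higher at days 2 and 4 than at days 0, 6 and 8. At days 0, 2, 4, 6 and 8 of the knockdown arm, Fkbp5 averaged 1487, 25958, 15121, 3151 and 2091 normalised counts, so most of the fall lay between days 4 and 6 and the day 8 level was close to that of day 0. Tsc22d3 followed with 1364, 19272, 16805, 3040 and 2645. Hsd11b1, whose enzyme regenerates active glucocorticoid inside the cell, did not move with them. It had 429 and 585 normalised counts at day 8, against 392 and 645 at day 4, a log2 change of -0.00 (95% interval -1.08 to 1.07, adjusted p = 0.998), and its sign turned in some scalings (0.06 with total reads).

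**Figure D2:**
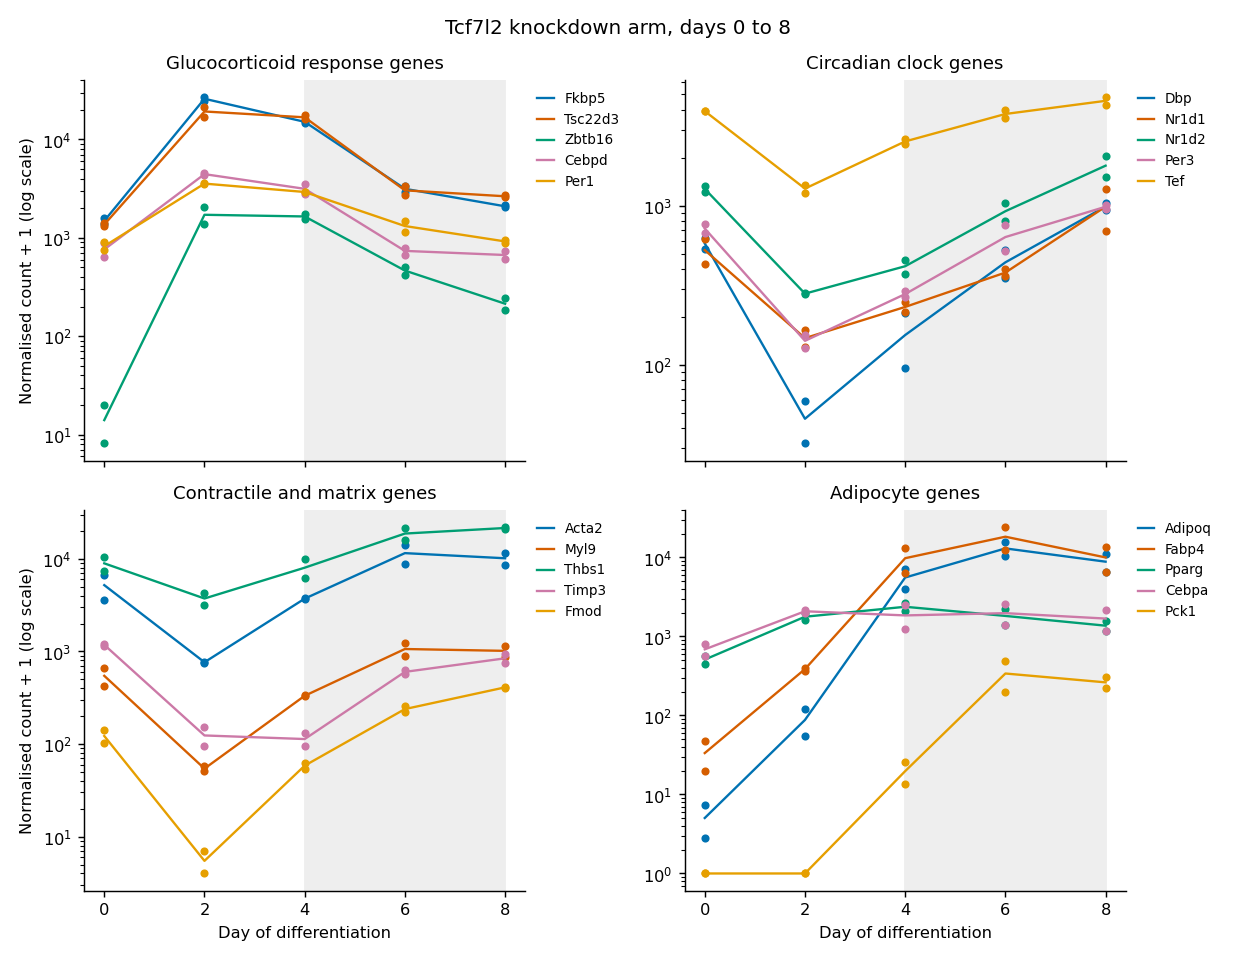
Normalised count + 1 (vertical axes, log scale) at days 0, 2, 4, 6 and 8 (horizontal axes) in the knockdown arm for genes of 4 kinds, with a point per library, a line through the mean of 2 libraries and the interval from day 4 to day 8 shaded. The glucocorticoid response genes drawn are ones called lower, and so lie lower at day 8 than at day 4, after a peak at day 2. Of all 15 tested, 5 were not called and 1 had a log2 change above 0. The clock, contractile and matrix genes drawn are ones called higher, and so lie higher at day 8 than at day 4. Of all 17 clock genes tested, 8 had a log2 change below 0. Adipoq and Fabp4 climb mainly before day 4.

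Genes with other roles fell as steeply. Ctla2a, which encodes a cysteine protease inhibitor, had 301 and 223 normalised counts at day 8, against 2899 and 2866 at day 4, a change of -3.47 (adjusted p = 0.000241). Errfi1, a feedback inhibitor of the EGF receptor, fell by 2.79 on the log2 scale (adjusted p = 0.000505). For both genes the days were several-fold apart while the 2 libraries of a day lay close together. Clca1 (-2.62) and Clca2 (-2.63) are near-identical copies of a chloride channel regulator gene, and Ifi205 (-2.52) belongs to a family of close copies, so reads may have been shared between copies and their single values are uncertain. Sult1a1, a sulfotransferase, changed by -2.51 and Adamts15, a matrix protease, by -2.21. The calls of Clca1, Clca2 and Sult1a1 ended in all 4 fits that left out 1 library (adjusted p = 0.101 to 0.244). The call of Hp, which encodes the haemoglobin-binding haptoglobin (-2.64), ended in the same fits (adjusted p = 0.152 to 0.241) and with the replicate block (adjusted p = 0.1004).

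Larger falls were found in genes of lower mean level, chosen for mention after their values were seen. Fam107a, an actin-binding stress protein, had 12.8 and 4.82 normalised counts at day 8, against 829 and 1255 at day 4, a change of -6.83 (SE 0.499, adjusted p = 0.000305). Retnla, which encodes the secreted protein RELM alpha, had 12.8 and 16.1 at day 8, against 300 and 492 at day 4, a change of -4.65. Ear2, one of a cluster of near-identical ribonuclease genes whose reads cannot be assigned with certainty, changed by -5.21. Fam107a averaged 0.525 normalised counts at day 0 and 1214 at day 2.

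Several output genes of the circadian clock rose. The clock is a loop in which CLOCK and BMAL1 switch on Per, Cry and Nr1d genes through E-box sequences, whose products then repress the loop, while DBP and TEF act at D-box sequences. Of 17 clock genes tested, 5 were called higher (0.812% over all genes) and 1, Per1, lower, with a median change of 0.52. Dbp (ENSMUSG00000059824.4), an activator at D-boxes, had 1035 and 938 normalised counts at day 8, against 94.6 and 211 at day 4, a change of 2.79 (SE 0.392, adjusted p = 0.00801). Nr1d2 (ENSMUSG00000021775.9), which encodes the repressor REV-ERB beta, had 2042 and 1523 at day 8, against 457 and 374 at day 4, a change of 2.09 (SE 0.180, adjusted p = 0.000624). Both day 8 libraries stood far above both day 4 libraries for these genes, and in the fit without libraries numbered 2 only Nr1d2 of this list was called.

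Nr1d1, which encodes REV-ERB alpha, had 1278 and 692 normalised counts at day 8, against 247 and 213 at day 4, a change of 2.03 (adjusted p = 0.00749). Per3, a period gene, had 1012 and 955 at day 8, against 264 and 290 at day 4, a change of 1.82 (adjusted p = 0.00150). Tef, the relative of Dbp, had 4814 and 4302 at day 8, against 2609 and 2456 at day 4, a change of 0.85 (adjusted p = 0.00696). The genes of the activating arm, named here after their values were seen, were not called: Arntl, which encodes BMAL1, had a log2 change of -0.53 (adjusted p = 0.232) and Clock -0.21 (adjusted p = 0.597). The calls of Dbp ended without day 8 library 1 or 2 (adjusted p = 0.0724 and 0.0574), of Nr1d1 without day 4 library 2 (0.0748) and of Tef without day 4 library 2 or day 8 library 1 (0.0833 and 0.0736). The labels do not give the hour of sampling, so a change over days and a difference in the hour of sampling cannot be told apart for any clock gene.

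The promoters of the called clock and contractile genes were searched for the sequences named above, and those that held one are printed to show where it lies. The 250 bases before the RefSeq start were searched on both strands for the E-box CACGTG, which 6.02% of all 32851 RefSeq promoter windows hold, the D-box TTATGTAA (0.819%) and, for contractile genes, the CArG box bound by serum response factor (1.47%). No printed window held both CACGTG and TTATGTAA, and other spellings of the E-box and the D-box were not searched. Of the 6 called clock genes, 2 held an E-box (Tef and Per1) and 1 a D-box (Per3), and of the 3 called contractile genes 1 held a CArG box (Myl9). The sequences come from RefSeq on GRCm38.p6, run 5′ to 3′ on the strand of the gene and have the motif in capitals. Per3 lies at chr4:151044666-151044915 on the minus strand, Tef at chr15:81802423-81802672, Per1 at chr11:69098699-69098948 and Myl9 at chr2:156775214-156775463, all 3 on the plus strand; Tef and Per1 each have 2 annotated starts, of which the first is shown. The other window of Tef also held an E-box and that of Per1 held none.
Per3: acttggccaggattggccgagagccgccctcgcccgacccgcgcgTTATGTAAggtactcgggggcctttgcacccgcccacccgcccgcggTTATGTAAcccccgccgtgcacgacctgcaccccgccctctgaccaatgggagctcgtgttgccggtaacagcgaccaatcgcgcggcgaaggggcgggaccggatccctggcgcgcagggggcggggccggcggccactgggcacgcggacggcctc
Tef: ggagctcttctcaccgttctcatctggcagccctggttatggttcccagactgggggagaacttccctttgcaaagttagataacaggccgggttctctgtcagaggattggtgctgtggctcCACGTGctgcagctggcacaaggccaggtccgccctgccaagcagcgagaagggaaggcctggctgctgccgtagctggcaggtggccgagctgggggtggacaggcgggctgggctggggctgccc
Per1: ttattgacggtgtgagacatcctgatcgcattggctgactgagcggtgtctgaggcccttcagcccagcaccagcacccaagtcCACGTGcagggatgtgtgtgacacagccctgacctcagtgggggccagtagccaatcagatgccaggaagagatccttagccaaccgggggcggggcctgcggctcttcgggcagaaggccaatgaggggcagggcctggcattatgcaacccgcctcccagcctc
Myl9: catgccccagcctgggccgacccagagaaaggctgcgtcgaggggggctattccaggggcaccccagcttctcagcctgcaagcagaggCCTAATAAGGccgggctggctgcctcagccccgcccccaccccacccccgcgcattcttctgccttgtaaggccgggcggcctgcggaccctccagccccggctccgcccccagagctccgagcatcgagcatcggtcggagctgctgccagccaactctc
Per3 held 2 D-boxes, which begin 205 and 158 bases before the start. Dbp, Nr1d1 and Nr1d2, which also rose, held neither an E-box nor a D-box in the bases searched. A part of these sequences in the changes was not tested. The E-box begins 127 bases before the start in Tef and 166 in Per1, 2 genes that moved in opposite directions. The CArG box of Myl9 begins 161 bases before its start.

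Smooth muscle actin and other contractile genes rose. Of 18 contractile and serum response factor target genes tested, 3 were called higher and none lower, 17 had a log2 change above 0, and the median change was 0.39. Over all genes tested 0.812% were called higher and 1.3% lower, and 50.2% lay above 0. Acta2 (ENSMUSG00000035783.8), which encodes smooth muscle alpha-actin, had 8649 and 11655 normalised counts at day 8, against 3779 and 3658 at day 4, a change of 1.43 (SE 0.297, adjusted p = 0.0448). Myl9, a regulatory myosin light chain, had 874 and 1155 at day 8, against 336 and 326 at day 4, a change of 1.60 (SE 0.241, adjusted p = 0.0101). Tpm1, a tropomyosin, had 12566 and 17261 at day 8, against 6789 and 6366 at day 4, a change of 1.16 (adjusted p = 0.00921). The groups did not overlap for these genes, with day 8 library 2 the highest in each. The Acta2 call ended with the replicate block (adjusted p = 0.0793) and in all 4 fits that left out 1 library (0.114 to 0.260); those of Myl9 and Tpm1 ended without day 4 library 1, day 4 library 2 or day 8 library 2 (0.0643 to 0.102 and 0.0520 to 0.0907). The 10 markers of myofibroblasts and smooth muscle, which include Acta2, summed to 10569 to 14049 at day 8 and to 5439 to 5440 at day 4, with none at 0. Most of each sum was Acta2 itself, so the sums largely repeat its values. Of the 10 markers, 2 lay below 10 normalised counts in all 4 libraries. The part of such cells in the result was not tested.

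Secreted matrix proteins changed in both directions. Of 26 matrix glycoproteins and proteoglycans, 5 were called higher and 1 lower, beside 0.812% higher and 1.3% lower over all genes, with a median change of 0.22. Thbs1 and Thbs2 encode thrombospondins, matricellular proteins that restrain vessel growth and, for Thbs1, activate latent TGF-beta. Thbs1 had 21056 and 22049 normalised counts at day 8, against 9879 and 6181 at day 4, a change of 1.46 (adjusted p = 0.0204). Thbs2 had 30499 and 18397 at day 8, against 10320 and 8294 at day 4, a change of 1.36 (adjusted p = 0.0113). Fmod, the collagen-binding proteoglycan fibromodulin, had 404 and 414 at day 8, against 61.5 and 53.4 at day 4, a change of 2.81 (SE 0.290, adjusted p = 0.0015). Both day 8 libraries exceeded both day 4 libraries in each case. Fbln1, the elastic fibre protein fibulin 1, rose by 1.27 (adjusted p = 0.0018). Vcan, the large proteoglycan versican, had 34017 and 23059 at day 8, against 76813 and 70237 at day 4, a change of -1.39 (adjusted p = 0.00977). The calls of Thbs1 ended without day 4 library 2, day 8 library 1 or day 8 library 2 (adjusted p = 0.118 to 0.134), of Thbs2 without day 4 library 2 or day 8 library 1 (0.107 and 0.0549) and of Vcan without day 4 library 1, day 4 library 2 or day 8 library 2 (0.0680 to 0.0769).

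Collagens mostly fell where they were called. Of 18 collagen chains, 4 were called lower and 1 higher, beside 1.3% lower and 0.812% higher over all genes, with a median change of -0.29. Col4a1, a chain of the basement membrane collagen, had 88754 and 96510 normalised counts at day 8, against 224761 and 185692 at day 4, a change of -1.14 (SE 0.136, adjusted p = 0.00303). Its partner Col4a2 changed by -0.95 and the microfibrillar chain Col6a2 by -1.15. Col8a1, a short-chain network collagen, had 393 and 321 at day 8, against 63.8 and 79.2 at day 4, a change of 2.31 (adjusted p = 0.00602). The fibrillar chain Col1a1 had 194875 and 219546 at day 8, against 256190 and 293373 at day 4, a difference of -0.41 (95% interval -1.04 to 0.23, adjusted p = 0.681). Without 1 library the calls ended for Col4a2 in all 4 fits (adjusted p = 0.0554 to 0.0865), for Col6a2 without day 4 library 2 (0.0519) and for Col8a1 without day 8 library 1 (0.0687), and that of Col4a1 held.

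Among 25 matrix proteases, crosslinkers and inhibitors, 2 were called higher and 4 lower, and with the replicate block 4 higher and 6 lower. Over all genes 0.812% were called higher and 1.3% lower, and 2.73% and 3.06% with the block. Timp3 (ENSMUSG00000020044.7), a matrix-bound inhibitor of metalloproteases, had 757 and 928 normalised counts at day 8, against 130 and 94.7 at day 4, a change of 2.91 (SE 0.234, adjusted p = 0.000505). Its call held in every fit that left out 1 library and without the libraries numbered 2. Adamts12, a secreted metalloprotease, fell by 1.57, Mmp19 fell by 0.85 and Mmp11 rose by 0.83 on the log2 scale, and these 3 calls ended in 3 or 4 of the fits that left out 1 library (adjusted p = 0.0796 to 0.137). Of 16 TGF-beta genes, 2 were called higher and 1 lower, and 5 and 2 with the block, beside the same shares over all genes. Tgfb3, a ligand, rose by 0.77, Smad7, an inhibitor that the pathway induces, by 1.26, and Tgfbr3, the co-receptor betaglycan, changed by -0.85. Each of these 3 calls ended in all 4 fits that left out 1 library (adjusted p = 0.0557 to 0.177).

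Further genes that rose had varied roles. Igf1, a growth factor, had 3765 and 3037 normalised counts at day 8, against 1262 and 1010 at day 4, a change of 1.58 (adjusted p = 0.0418). Slc40a1, the iron exporter ferroportin, had 1232 and 1104 at day 8, against 493 and 414 at day 4, a change of 1.37 (adjusted p = 0.00186). Emp1, a membrane protein of growing cells, had 7544 and 8203 at day 8, against 3111 and 3520 at day 4, a change of 1.25 (adjusted p = 0.00382). For each of them both day 8 libraries were above both day 4 libraries. Cdc42ep3, an effector of the small GTPase Cdc42, rose by 1.44, Phldb2, which anchors microtubules at the cell edge, by 1.31, and Ahr, the dioxin receptor, by 1.23. Igf1 was not called in any of the 4 fits that left out 1 library (adjusted p = 0.132 to 0.243), and Ahr and Phldb2 were not called without day 4 library 2, day 8 library 1 or day 8 library 2 (adjusted p = 0.0626 to 0.164). Below the level that the naming rule required, and chosen after their values were seen, Itga11, a collagen-binding integrin chain, rose by 3.12, Sorbs2, an adaptor at actin fibres, by 2.94 and Fgl2, a fibrinogen-like protein, by 3.64. The calls of these 3 ended in 1 to 4 of the fits that left out 1 library (adjusted p = 0.0504 to 0.130).

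Some adipogenic transcription factors fell. Of 18 adipogenic transcription factors none was called higher and 4 were called lower (Cebpd, Klf5, Klf9 and Rxra), which is 22.2% of the list beside 2.11% called over all genes, with a median change of -0.42. Cebpd and Klf9 are the same calls already counted in the glucocorticoid list. Klf5, an early factor downstream of C/EBPs, had 58.8 and 81.1 normalised counts at day 8, against 381 and 469 at day 4, a change of -2.60 (adjusted p = 0.00155). Rxra, the partner receptor of PPAR gamma, changed by -0.69, a call that ended in all 4 fits that left out 1 library (adjusted p = 0.121 to 0.216). Pparg had 1162 and 1575 at day 8, against 2098 and 2652 at day 4, a difference of -0.80 (95% interval -1.36 to -0.24, adjusted p = 0.174), so the days did not overlap but the gene was not called. Cebpa had 1179 and 2189 at day 8, against 1226 and 2467 at day 4, a difference of -0.11 (95% interval -1.03 to 0.80), and its libraries differed by number more than by day.

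Of 25 mature adipocyte markers 1 was called (4% beside 2.11% over all genes), Pck1, with a median change of 0.44 over the list. Pck1, which makes the glycerol backbone of stored fat in adipocytes, had 221 and 302 normalised counts at day 8, against 12.5 and 24.96 at day 4, a change of 3.79 (SE 0.492, adjusted p = 0.00482), and was not called without day 8 library 2 (adjusted p = 0.0633). Adipoq, the adipokine adiponectin, had 6594 and 11093 at day 8, against 3969 and 7181 at day 4, a difference of 0.68 (95% interval -0.50 to 1.86, adjusted p = 0.730). Fabp4, the fatty acid carrier of adipocytes, had 6474 and 13541 at day 8, against 6449 and 13129 at day 4, a difference of 0.03 (95% interval -1.14 to 1.19). Within each replicate number both genes were higher at day 8, Fabp4 by little, and across numbers the days overlapped. With the replicate block the adjusted p was 0.704 for Adipoq and 0.990 for Fabp4. At days 0, 2, 4, 6 and 8, Adipoq averaged 4.04, 86.8, 5575, 13022 and 8844, with its highest mean at day 6.

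In 7 lists of fuel use and storage no gene was called, while in the main scaling most members of each lay below 0. None was called among 23 oxidative phosphorylation, 19 TCA cycle, 17 fatty acid oxidation, 19 branched-chain amino acid, 18 glycolysis, 22 cholesterol and 11 lipid droplet genes, where 2.11% of all genes were. Of these 127 different genes 20 (15.7%) passed at an unadjusted p below 0.05, beside 12.5% of all genes. Limma voom on recovered reads also called 0 of them, and the replicate block called 7 (5.51%, beside 5.79% of all genes). Their list medians ran from -0.28 to -0.06, beside 0.00 over all genes. All 23 oxidative phosphorylation genes lay below 0, between -0.63 and -0.06, and with libraries scaled by total reads 3 of them lay above it. Below 0 were also 18 of 19 TCA cycle, 16 of 19 branched-chain amino acid, 15 of 18 glycolysis and 14 of 17 fatty acid oxidation genes. For cholesterol it was 14 of 22 and for lipid droplets 6 of 11 genes, where 50.2% of all genes lay above 0. Scaled by total reads, 11 of the 22 cholesterol and 7 of the 19 branched-chain amino acid genes lay above 0. In the insulin pathway 2 of 19 genes were called lower (10.5%): Pik3r1, a regulatory subunit of PI 3-kinase, had 5666 and 4755 normalised counts at day 8, against 13774 and 13309 at day 4, a change of -1.38 (adjusted p = 0.00356). Tbc1d4, a brake on GLUT4 transport to the membrane, changed by -0.92. Among 12 lipolysis genes 1 was called, Abhd5, the co-activator of the fat lipase ATGL, which fell by 0.91 on the log2 scale. The block raised the counts to 5 insulin and 3 lipolysis genes. The Tbc1d4 call ended in all 4 fits that left out 1 library (adjusted p = 0.0514 to 0.0738), and the Abhd5 call without day 4 library 2 or day 8 library 1 (0.0790 and 0.0721).

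Calls made up 10% of the preadipocyte list, 4.35% of the Wnt list and 15% of the inflammatory list, beside 2.11% of all genes. Of 20 preadipocyte genes 2 were called higher, Gata2 (1.73), a factor that blocks adipogenesis, and Pdgfrb (0.60), a growth factor receptor of progenitors, and with the block 4 were. Dlk1, a surface inhibitor of adipogenesis, had 60895 and 85384 normalised counts at day 8, against 28117 and 38602 at day 4, a difference of 1.13 (95% interval 0.58 to 1.68, adjusted p = 0.0516, and 0.00194 with the block). Of 23 Wnt pathway genes 1 was called, Sfrp2, a secreted modulator of Wnt ligands (1.22, adjusted p = 0.0438), and 11 with the block, 6 higher and 5 lower, where the block called 5.79% of all genes. Lef1, a relative of Tcf7l2, had 250 and 292 at day 8, against 425 and 477 at day 4, a difference of -0.73 (adjusted p = 0.0572, and 0.0211 with the block), and the Wnt target Axin2 was below the level tested, with at most 10.4 normalised counts in these 4 libraries. The Gata2 and Pdgfrb calls ended in all 4 fits that left out 1 library (adjusted p = 0.0504 to 0.278) and that of Sfrp2 without day 4 library 2, day 8 library 1 or day 8 library 2 (0.184 to 0.259).

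Among 20 inflammatory genes 3 were called lower, Lcn2 (also counted in the glucocorticoid list), Hp and C3, and with the block 3 lower and 3 higher. C3, the central complement component, had 35105 and 28024 normalised counts at day 8, against 114586 and 91319 at day 4, a change of -1.71 (SE 0.201, adjusted p = 0.00292). None of 34 interferon response genes and none of 14 MHC class I and immunoproteasome genes was called, with medians of 0.12 and 0.16 and none at an unadjusted p below 0.05 or with limma voom. Ifit1, which binds viral RNA, had 2948 and 5878 at day 8, against 2567 and 4114 at day 4, a difference of 0.36 (95% interval -0.83 to 1.54), and Isg15, a ubiquitin-like interferon product, differed by 0.09 (95% interval -0.98 to 1.15). The days overlapped for both. None of 30 cell cycle genes was called either, by limma or by limma voom or at an unadjusted p below 0.05, with Mki67, a marker of dividing cells, at 2530 and 1365 at day 8, against 1252 and 1694 at day 4. Single calls elsewhere were Sod3 (0.65) and G6pdx (-0.56) among 20 genes of oxidative stress and Mthfd2 (-0.64) among 21 of amino acid synthesis, and Lyz2 (1.27) among 8 tested macrophage markers. Lyz2 may share reads with its close copy Lyz1 and is uncertain. All 4 of these calls ended in every fit that left out 1 library (adjusted p = 0.0626 to 0.278). The 12 macrophage markers summed to 1254 to 1419 at day 8 and to 932 to 1138 at day 4, with Emr1, which encodes the defining marker F4/80, at 0 in all 4 libraries. Endothelial markers summed to 99.6 to 130 at day 8 and to 92.3 to 99.0 at day 4, with Erg and Cldn5 at 0.

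**Figure D3:**
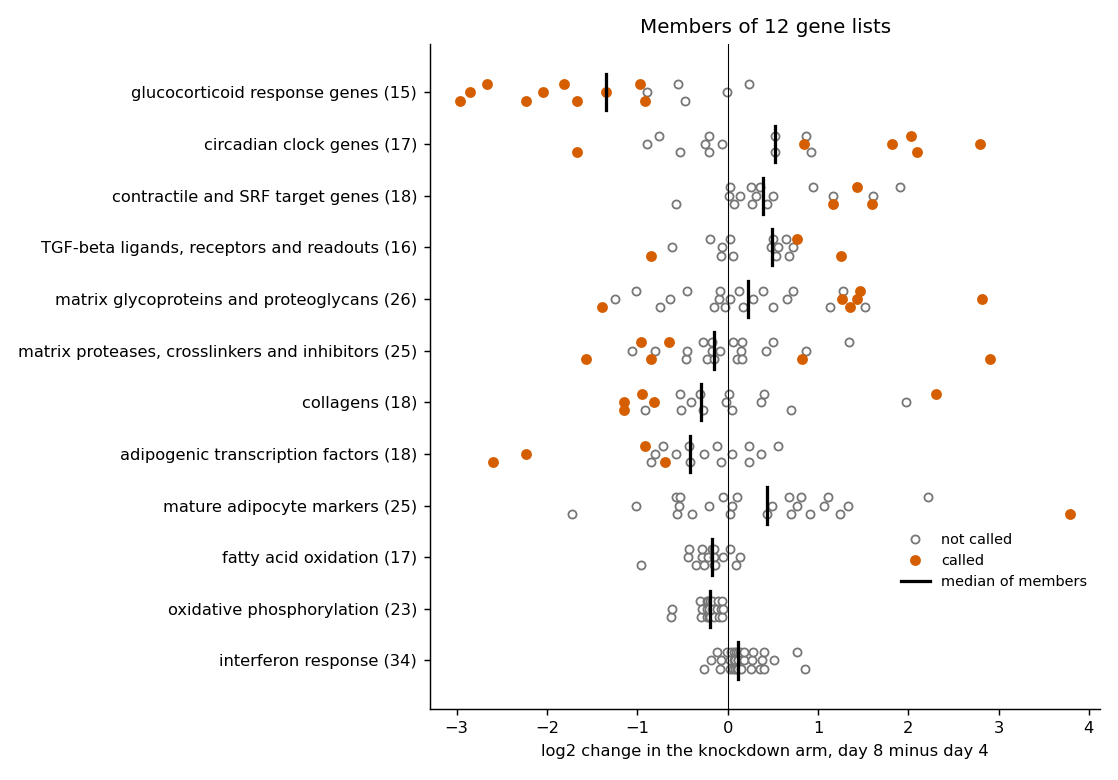
Log2 change between knockdown day 8 and knockdown day 4 (horizontal axis) for every tested member of 12 gene lists (vertical axis, with the number tested in brackets); filled points were called, open points were not, and the black bar is the median of the members. The glucocorticoid list lies almost wholly left of 0 with its median at -1.35, while interferon response genes cluster near 0 with none called.

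For the typical called gene the day 6 mean lay nearer to day 8 than to day 4. Between day 6 and day 4 of the knockdown arm 116 genes were called (0.719%), 27 higher (0.167%) and 89 lower (0.552%). Between day 8 and day 6 limma called 0 genes, and limma voom and the replicate block also 0. Of 16137 genes, 368 passed at an unadjusted p below 0.05, a share that is itself below 0.05. For the genes that fell between day 8 and day 4, the day 6 mean had covered a median of 79.6% of the log2 change, with quartiles of 64.9% and 91.2%. For those that rose it had covered 67.8%, with quartiles of 56.4% and 79.2%. Tsc22d3 and Cebpd had covered 92.8% and 93.7% of their fall by day 6, whereas Nr1d1 had covered 35.4% and Dbp 57.3% of their rise. These shares use the day 4 and day 8 means by which the genes were chosen and are a description only; whether the risers and fallers differ in pace was not tested. The count for day 6 against day 4 rested on both libraries of each day: it was 19 without day 4 library 2, 20 without day 4 library 1, 21 without day 6 library 1 and 42 without day 6 library 2, and 392 with the block.

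Some genes that rose ended below their day 0 level and others above it. Timp3 averaged 1178, 123, 112, 601 and 842 normalised counts at days 0, 2, 4, 6 and 8, and Dbp 578, 44.8, 153, 439 and 986, so Timp3 stayed below and Dbp went above its day 0 mean. Acta2, at 5204, 764, 3718, 11536 and 10152, passed its day 0 mean by day 6.

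In scrambled cells most of these genes differed in the same direction over the interval. Between scrambled day 8 and scrambled day 4, 419 genes were called (2.6%), 197 higher (1.22%) and 222 lower (1.38%). Of the 341 genes called in the knockdown arm, 338 had the same sign in the scrambled arm and 144 were also called there in that direction, which is 42.2% of the knockdown calls and 34.4% of the scrambled calls. These counts come from unlike fits, the knockdown calls from the 10 knockdown libraries and the scrambled calls from all 20. With all 20 libraries fitted, 122 genes were called in the knockdown arm. Fkbp5 had 2138 and 2044 normalised counts in knockdown cells at day 8 and 2563 and 1516 in scrambled cells at day 8, and its change over the interval was -2.85 in the knockdown arm and -3.33 in the scrambled arm. Dbp changed by 2.79 in the knockdown arm and by 2.24 in the scrambled arm, and Acta2 by 1.43 and 1.08, the last not called in the scrambled arm (adjusted p = 0.152). The scrambled libraries of a day differed more from each other than the knockdown ones, with an SD over genes of the log2 difference of 0.825 in scrambled and 0.418 in knockdown libraries at day 8. The scrambled count was 0 in a fit of the compared libraries alone, 180 without scrambled library 2 of day 4 and 495 without scrambled library 1 of day 8; the part of the spread in these shifts was not tested.

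**Figure D4:**
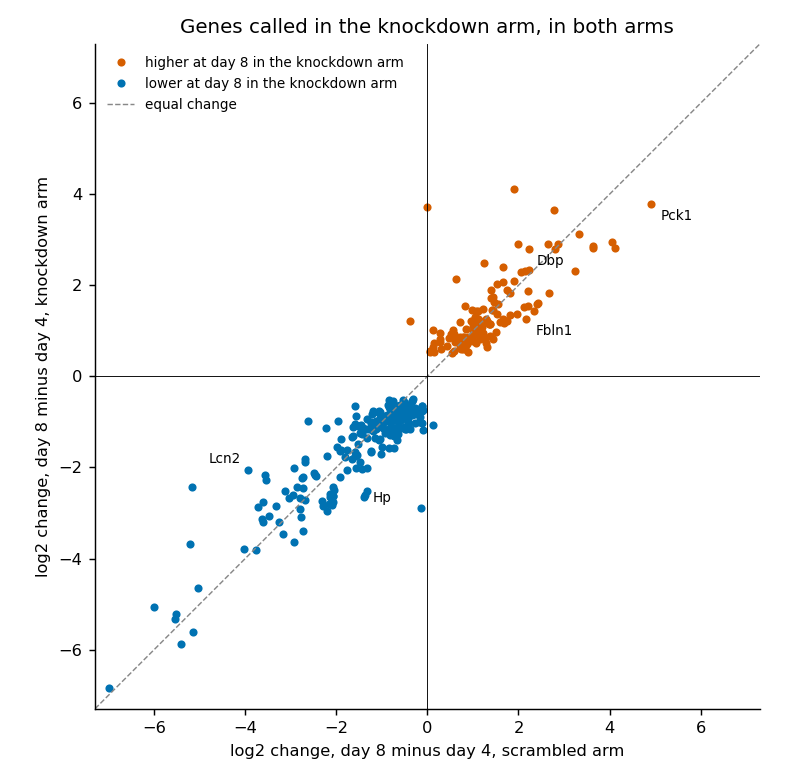
Log2 change between day 8 and day 4 in the knockdown arm (vertical axis) against the same change in the scrambled arm (horizontal axis) for the 341 genes called in the knockdown arm; orange genes rose and blue genes fell in knockdown cells, and the dashed line marks equal change. All but 3 of the 341 points share their sign between the arms.

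No gene's change over the interval was called different between the arms, except with the replicate block, which called 10 (0.062%). The contrast of day 8 minus day 4 in knockdown cells less the same in scrambled cells called 0 genes with limma or limma voom. Of 16137 genes, 352 passed at an unadjusted p below 0.05, a share that is itself below 0.05. The median SE of that contrast was 0.359, against 0.186 for the change within the knockdown arm. The 34 interferon response genes had a median change of 0.12 in the knockdown arm and 1.48 in the scrambled arm, where 3 were called higher, and the arm difference was below 0 for all 34. The median arm difference was -1.24 for this list and -0.0068 for all genes tested. Members of a list were measured in the same 2 libraries per group, so a shared sign among them is not repeated evidence. At day 8 Ifit1 had 2948 and 5878 normalised counts in knockdown cells, against 654 and 132 in scrambled cells. At day 4 it had 2567 and 4114 in knockdown cells, against 69.7 and 49.2 in scrambled cells. The knockdown libraries lay above the scrambled ones on both days. The arm difference of the change was -1.95 (95% interval -4.39 to 0.49).

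The 25 mature adipocyte markers had a median change of 0.44 in the knockdown arm and 1.01 in the scrambled arm, and the arm difference was below 0 for all 25. Its median was -0.73, beside -0.0068 for all genes tested, and these members too share the same libraries. Adipoq had 6594 and 11093 normalised counts in knockdown cells at day 8, against 23518 and 95514 in scrambled cells, and 3969 and 7181 in knockdown cells at day 4, against 7728 and 25735 in scrambled cells. The arm difference of its change was -1.07 (95% interval -3.67 to 1.54), an interval wide enough to hold no difference and a large one. Pparg had an arm difference of -0.83 (95% interval -2.61 to 0.95) and Hsd11b1 of -1.43 (95% interval -3.65 to 0.80). Scrambled library 2 exceeded scrambled library 1 for Adipoq, Fabp4, Pparg and Hsd11b1 on both days; the part of that gap in these intervals was not tested. The 18 contractile genes had an arm difference above 0 in every case, with a median of 0.37. Their median changes were 0.39 in the knockdown arm and -0.03 in the scrambled arm, and no arm difference among them was called. These members also share the same libraries, and other lists were as one-sided. The arm difference was below 0 for all 22 cholesterol, 21 fatty acid and triglyceride synthesis and 17 fatty acid oxidation genes. It was also below 0 for all 14 MHC class I and immunoproteasome genes. Its median was 0.79 for cell cycle, 0.66 for amino acid synthesis and 0.54 for ER chaperone genes, with 1 member of each list below 0.

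**Figure D5:**
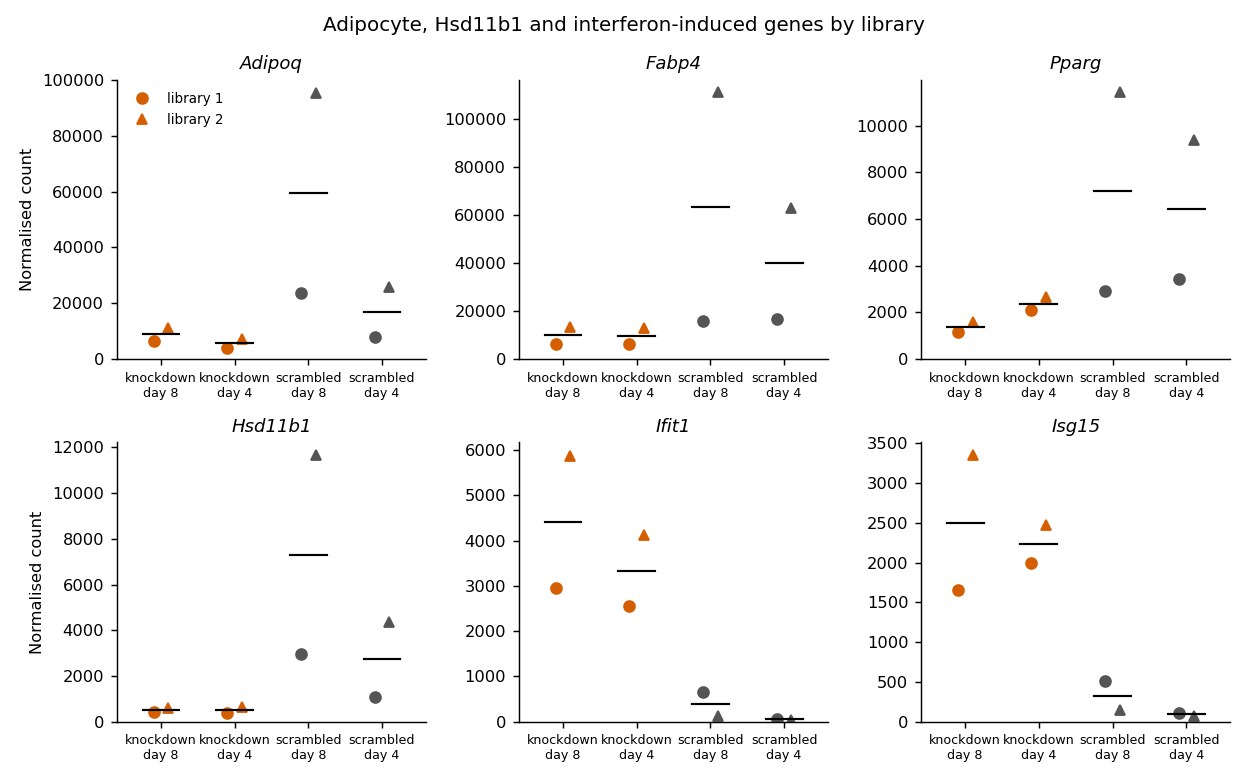
Normalised count (vertical axes, from 0) of 6 genes in the libraries of knockdown day 8, knockdown day 4, scrambled day 8 and scrambled day 4 (horizontal axes), with a circle for library 1, a triangle for library 2 and a bar at the mean of 2. Adipoq, Fabp4, Pparg and Hsd11b1 are highest in scrambled library 2 of day 8, whereas Ifit1 and Isg15 are higher in all knockdown libraries than in any scrambled one.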

How the data were processed

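RNA-seq tables of 5 days, each with 33581 genes and 4 libraries, were used. Per the submitters' processing notes, the authors used TopHat2 2.0.13, Bowtie2 2.2.3.0, SAMtools and DESeq2 1.10.1 with mm9; neither a read counter nor an annotation is named there. The deposited library values are variance-stabilised log2 values, computed per day by the authors, as their names and values show. The deposited baseMean is a signal, the authors' mean of counts divided by size factors. The deposited p-values and the deposited test statistic, a score, compare the hairpins and were not used for results. No per-library column went unused (0).

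Normalised counts were recovered by inverting the transform, and 100% of values up to 100 reads came out within 0.02 of whole reads. Libraries were scaled together by the median of ratios over 16778 genes. Genes with a baseMean of at least 10 at day 4 or day 8 were kept (16137). limma 3.58.1 (R 4.3.3, statmod 1.5.0), with trend and robust estimation on log2(normalised count + 1), was fitted to the 10 knockdown libraries, and to all 20 for the scrambled arm and arm differences, with Benjamini-Hochberg adjustment; the pseudocount of 1 understates changes of low genes. Checks on simulated data preceded the fits. The members and gene lists were chosen with earlier results of these data known. Of 657 listed symbols, 8 matched no gene and 586 were tested. Named genes were, among called genes without overlap between days and above the median level, the 15 with the largest change per direction, up to 4 called members per list by smallest adjusted p, and a fixed set of pathway genes, 74 in all; a few more, marked so in the text, were picked after their values were seen. Some genes that the rule names are not reported here.

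Same-numbered knockdown libraries deviated together (correlations of 0.106 to 0.547 over 10 pairs of groups, 0.376 for days 4 and 8), so the numbers were treated as pairing them, though the labels name no shared culture. Alternatives varied scaling, pseudocount, filter, test, the libraries fitted and the block.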

Additional observations from a re-analysis of the deposited data

How the results depend on the processing

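Counts of called genes for knockdown day 8 against day 4 stayed within 1.5 times of 341 under 11 of the alternatives to scaling, pseudocount, filter, test and libraries fitted, but were 122 with all 20 libraries in the fit, 934 with the replicate block and 85 to 137 without 1 library. For day 6 against day 4 they were 52 without trend and robust estimation, 64 with the compared libraries only, 48 with all 20 libraries, 392 with the block and 19 to 42 without 1 library. For day 8 against day 4 in scrambled cells they were 0 with the compared libraries only, 1143 with the block and 180 to 495 without 1 library. With the block, 10 genes differed between the arms, all lower in the knockdown change, among them H2-K1 (-1.50) and Ifi27l2a (-2.64, adjusted p = 0.0364); H2 genes have near-identical copies and are uncertain, and over all 20 libraries the lowest same-number correlation was -0.01. Leaving out the libraries numbered 2 of days 4 and 8, chosen after seeing the data, leaves 1 library per compared group, assumed to vary like the others: it gave 21 knockdown and 47 scrambled calls, a Tcf7l2 difference between the arms of -1.55 at day 4 (adjusted p = 0.168) and -1.41 at day 8 (adjusted p = 0.636), and 8 of the 61 called named genes. The Tcf7l2 difference at day 8 was -1.62 with the compared libraries only (adjusted p = 0.375) and -1.74 to -1.50 without 1 library. Apart from counts, the block ended the calls of Acta2 and Hp, added Dlk1 and Lef1 and changed no other call of a named gene.

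Of the 61 named genes called by the naming rule, 23 stayed called in all 4 fits that left out 1 library, 18 ended in 1 to 3 and 20 in all 4, and all 61 kept their direction. Directions turned only for genes that were not called. Without 1 library these ranged from -0.62 to 0.39 for Cebpa, -0.51 to 0.56 for Fabp4, -0.36 to 0.35 for Hsd11b1, -0.14 to 0.85 for Ifit1, -0.42 to 0.59 for Isg15 and -0.0930 to 0.80 for Mki67. Hsd11b1 was 0.0585 with total reads, 0.0326 with upper quartile scaling and 0.13 without the libraries numbered 2, and Isg15 was -0.27 without them. The median of all genes moved by at most 0.07 on the log2 scale under another scaling. The causes of these shifts were not tested. Genes below the level filter, such as Axin2, could not be judged at this depth.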
